A study of Homo sapiens with 4 samples.

Results

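The mRNA levels of 8 genes of the BCL2 family were described after vehicle or 5-azacytidine (AZA) in 2 cell lines, MDS-L and its resistant derivative MDS-L/CDA. The genes were 5 that encode survival proteins (BCL2, BCL2L1, BCL2L2, MCL1 and BCL2A1) and 3 that encode effectors (BAX, BAK1 and BOK). They were chosen by name, and every non-control probe with 1 of these names on the array was kept, which gave 11 probes of 58185 and 8 gene names of 43311. BCL2, BCL2A1 and BAX had 2 probes each, and the other 5 genes had 1.

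MDS-L is a human cell line derived from myelodysplastic syndrome, a clonal disorder of bone marrow stem cells. MDS-L/CDA was made from it by introducing the gene for cytidine deaminase (CDA), an enzyme that breaks AZA down, and served as the AZA-resistant line. The medium of both lines was RPMI1640 with 50 μM 2-mercaptoethanol, 10% FBS and IL-3, at 20 ng/mL per the labels and at a lower concentration per the study's methods, and the cells received 0.1% DMSO (vehicle) or 1 μM AZA for 72 h. RNA of each of the 4 conditions was hybridized to 1 Agilent array, so the arrays had no replicates, no test between conditions was possible, and every ratio below compares 2 single arrays. The titles, source names and descriptions gave the groups used here, whereas the treatment field names DMSO for both MDS-L arrays and AZA for both MDS-L/CDA arrays. The array titles also give the AZA dose as 1 mM, where the other labels and the methods give 1 μM.

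BCL2 family proteins decide whether the outer mitochondrial membrane stays intact. BAX and BAK1 form pores in that membrane, which releases cytochrome c and starts the caspase cascade, and the survival proteins hold them, and the BH3-only proteins that activate them, in check. Blood cells differ in the survival protein they lean on, and BCL2 and MCL1 are drug targets in myeloid malignancy. AZA is incorporated into RNA and DNA and traps DNA methyltransferases, so that methylation at CG dinucleotides is lost as cells divide.

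The probes that carried the differences described below are given 5′ to 3′ in the sense of the mRNA, as the array design lists them, with hg19 positions. For probes that may lie in an untranslated part only the first 30 of their 60 bases are shown.

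BCL2, main probe A_23_P352266, chr18:60790723-60790782, minus strand, first 30 bases: tggctgatattctgcaacactgtacacata
BCL2, second probe A_33_P3355185, chr18:60985401-60985460, minus strand: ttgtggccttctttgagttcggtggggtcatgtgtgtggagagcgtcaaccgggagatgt
BCL2L1, A_23_P210886, chr20:30253324-30253383, minus strand, first 30 bases: gaacctcttccccagaaaggagactagatt
BCL2L2, A_23_P418373, chr14:23780660-23780719, plus strand, first 30 bases: aatagggactttgtttaggccaaggaagga
BCL2A1, main probe A_23_P152002, chr15:80263136-80263195, minus strand: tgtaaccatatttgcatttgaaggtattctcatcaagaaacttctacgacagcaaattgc
BCL2A1, second probe A_23_P321703, chr15:80253220-80253252, minus strand: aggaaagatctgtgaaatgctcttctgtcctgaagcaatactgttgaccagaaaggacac
BAX, second probe A_33_P3341144, chr19:49464454-49464513, plus strand, first 30 bases: ctgcctctggaattgctcaagttcattgat

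The main probe of a gene is the one with the higher mean signal. The position listed for the second BCL2A1 probe covers 33 of its 60 bases, and 3 of the 4 RefSeq transcripts that the design lists for it matched no entry of the current RefSeq gene table, so its identity is less sure than that of the other 10 probes, whose transcripts all matched their own gene. The probes of a gene were also drawn from different transcripts. The design lists no transcript that the 2 BCL2 probes share, none that the 2 BAX probes share, and 1 that the 2 BCL2A1 probes share. Whether a probe lies in a coding or an untranslated part of an exon was not determined here, because no hg19 annotation was used.

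Promoters were looked at because AZA acts on CG. RefSeq promoters (GRCh38.p14, 250 bases before to 50 after the start) were found for 6 of the 8 genes, without BCL2L2 and MCL1. In this window of 300 bases CG occurred 38 times in BAX, 31 in BCL2, 22 in BOK, 20 and 16 at the 2 starts of BCL2L1, 7 in BAK1 and 2 in BCL2A1, against a median of 14 over 35116 promoters. The 250 upstream bases of the genes with most and fewest CG are printed with every CG in capitals (CG reads the same on both strands).

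BAX, chr19:48954625-48954874, plus strand: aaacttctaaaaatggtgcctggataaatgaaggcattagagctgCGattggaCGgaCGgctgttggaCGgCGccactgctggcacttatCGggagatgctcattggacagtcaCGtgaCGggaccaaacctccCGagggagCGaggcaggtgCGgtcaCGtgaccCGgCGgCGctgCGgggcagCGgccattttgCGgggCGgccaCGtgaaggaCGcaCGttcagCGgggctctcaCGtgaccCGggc
BCL2A1, chr15:79971197-79971446, minus strand: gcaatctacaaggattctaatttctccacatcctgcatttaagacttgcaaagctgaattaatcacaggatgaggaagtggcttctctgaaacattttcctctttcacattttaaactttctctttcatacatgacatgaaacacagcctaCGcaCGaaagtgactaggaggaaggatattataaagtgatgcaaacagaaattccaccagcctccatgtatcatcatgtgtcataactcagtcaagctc

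Of all promoters, 9.91% held at least as many CG as BAX and 18.2% at most as many as BCL2A1. These are counts of letters. The arrays measure RNA and hold no methylation of these promoters.

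Signals were scaled to the 75th percentile of each array, which was 52.5 and 52.9 intensity units on the MDS-L arrays and 40.8 and 37.3 on the MDS-L/CDA arrays, and a scaled signal of 1 is that percentile. Between 32.6% and 36.5% of all probes carried the scanner's flag for a signal well above background. Of the 11 member probes, 9 carried it on all 4 arrays, and the BCL2L2 and BOK probes did so on the MDS-L arrays only. Of the immature myeloid markers, 7 of 8 (CD34, KIT, CD33, SPI1, GATA2, IL3RA and CD38, but not MPO) were well above background on every array, and none of the epithelial or fibroblast markers was on any. On none of the arrays did the CDA probe carry the flag, and whether the introduced gene contains its target is not given in the sources used here. Of the member probes, 10 were printed as a single spot. The error given here is therefore a spot limit, meant as the difference that 2 single spots of 1 probe would exceed in about 5% of cases. It was taken from repeated probes in the same brightness bin. The lowest bin was wide, with median signals of 206 to 297 intensity units. BCL2L2 (62.8 on the MDS-L AZA array) and the second BAX probe (65.3 to 99.9) were dimmer than that, so their limits may be too narrow. For the main BAX probe, printed as 10 spots, the limit is for means over its own spots and so is narrower. Either limit covers the spot only, not labelling, hybridization or culture.

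**Figure D1:**
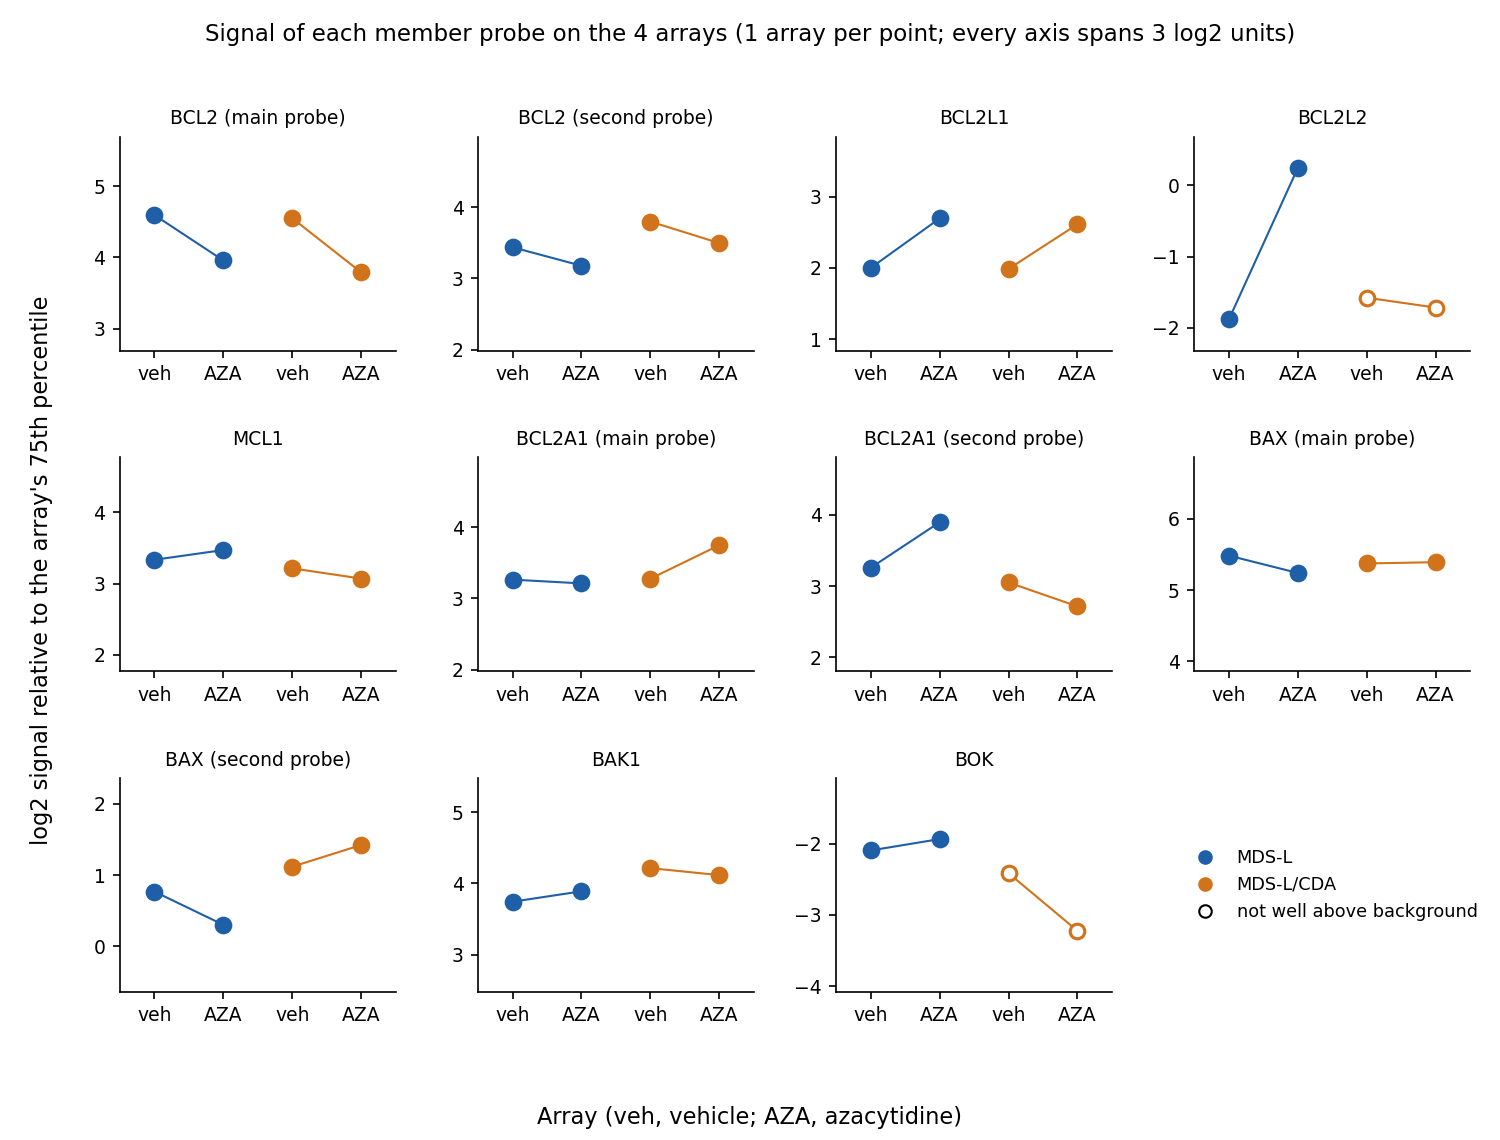
Log2 signal of each of the 11 member probes relative to the array's 75th percentile (vertical axis) on the 4 arrays (horizontal axis), 1 point per array, blue for MDS-L and orange for MDS-L/CDA, with open points where the signal was not well above background. BCL2 lay lower and BCL2L1 higher with AZA in both lines, and BCL2L2 stood out on the MDS-L AZA array only.

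Among the survival genes, BCL2, BCL2L1 and BCL2L2 stood apart between vehicle and AZA, in different directions. BCL2, the founding survival protein and the target of venetoclax, was lower with AZA in both lines. BCL2L1, which encodes BCL-XL, was higher by a similar size in both, within its spot limit. BCL2L2, which encodes BCL-W, was 4.36-fold higher with AZA in MDS-L and not well above background on either MDS-L/CDA array.

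The main BCL2 probe had scaled signals of 24.2 on the MDS-L vehicle array, 15.5 on the MDS-L AZA array, 23.4 on the MDS-L/CDA vehicle array and 13.8 on the MDS-L/CDA AZA array. Both vehicle arrays were thus higher than both AZA arrays, and neither pair differed between the lines beyond the spot limit. With median scaling, MDS-L/CDA over MDS-L with vehicle was -0.57, past its spot limit of 0.46. AZA over vehicle was -0.64 on the log2 scale in MDS-L (1.56-fold lower, spot limit 0.48) and -0.76 in MDS-L/CDA (1.69-fold lower, spot limit 0.68). Both values kept their sign under every scaling tried, with ranges from -1.18 to -0.46 in MDS-L and from -0.89 to -0.72 in MDS-L/CDA. In MDS-L the value was just inside the spot limit with quantile normalization and in the authors' value table (-0.46 in each). Among probes flagged on both MDS-L arrays, whose median was -0.15, 16.1% lay as low or lower. For MDS-L/CDA that share was 5.55%.

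The second BCL2 probe read 10.8, 9.04, 13.9 and 11.3 in the same order of arrays. Its ratios of AZA over vehicle were -0.26 in MDS-L and -0.30 in MDS-L/CDA, on the same side of 0 as the main probe but within spot limits of 0.62 and 0.73. The 2 probes differed from each other in these ratios by less than their spot limits of 0.79 and 0.99. The share of flagged probes as low as the second probe or lower was 41.0% in MDS-L and 21.6% in MDS-L/CDA.

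BCL2L1 read 4.0 with vehicle and 6.47 with AZA in MDS-L, and 3.96 and 6.11 in MDS-L/CDA. At this scaling the vehicle arrays were alike, and so were the AZA arrays. Over the settings tried, MDS-L/CDA over MDS-L ran from -0.54 to 0.02 with vehicle and from -0.59 to -0.08 with AZA. AZA over vehicle was 0.69 in MDS-L (1.62-fold, spot limit 0.75) and 0.63 in MDS-L/CDA (1.54-fold, spot limit 1.01), so neither ratio alone passed its spot limit. The sign held under every scaling tried, from 0.15 to 0.86 in MDS-L and from 0.43 to 0.66 in MDS-L/CDA. Of the probes flagged on both arrays, 8.01% lay as high or higher in MDS-L and 6.94% in MDS-L/CDA.

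Set against each other within an array, which removes the array's scaling, BCL2L1 and the main BCL2 probe parted in both lines. The log2 difference between them changed with AZA by 1.33 in MDS-L (BCL2L1 2.52-fold higher relative to BCL2, spot limit 0.89) and by 1.39 in MDS-L/CDA (2.61-fold, spot limit 1.22), and was past the spot limit both times, although with a normexp background correction the change in MDS-L/CDA was 1.17, short of the limit. This pair was picked out of 10 pairs of main probes after the values were seen. Of the other 9 pairs, BAX relative to BCL2L1 passed the limit in MDS-L (-0.94, limit 0.78) and BAX relative to BCL2 in MDS-L/CDA (0.78, limit 0.73), and no other pair passed in either line. The AZA ratios of the second BCL2 probe were smaller in size (-0.26 in MDS-L and -0.30 in MDS-L/CDA). Its pair with BCL2L1 was not computed, so the parting rests on the main BCL2 probe.

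**Figure D2:**
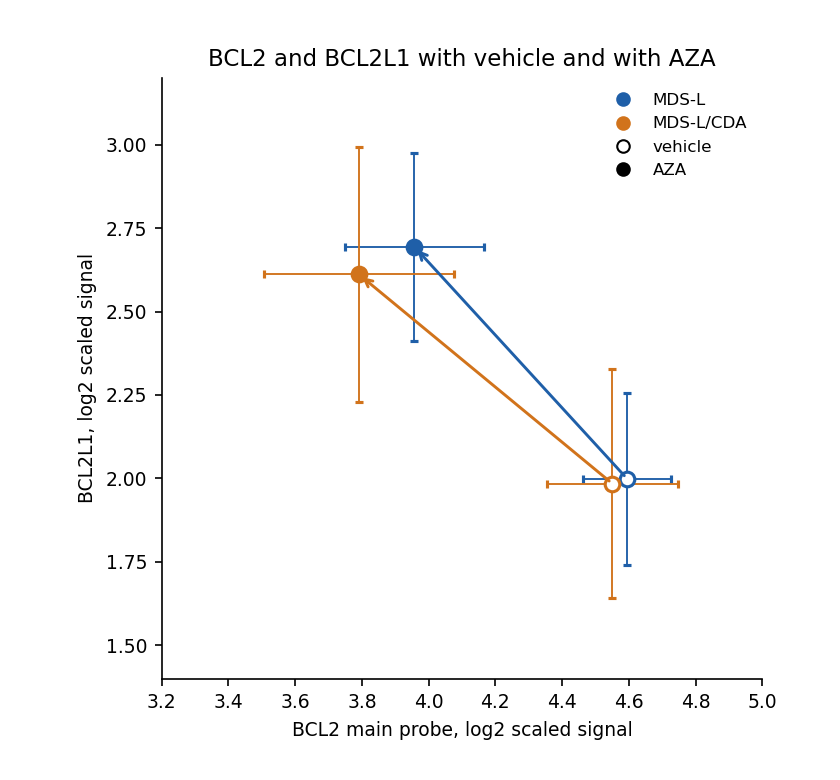
Log2 scaled signal of BCL2L1 (vertical axis) against that of the main BCL2 probe (horizontal axis), 1 point per array, open for vehicle and filled for AZA, blue for MDS-L and orange for MDS-L/CDA, with arrows from vehicle to AZA and bars of 1 spot SD. Both vehicle arrays lie together and both arrows point to lower BCL2 and higher BCL2L1.

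BCL2L2 gave the largest difference among the members, at low signal. Its scaled signal was 0.272 with vehicle and 1.19 with AZA in MDS-L, or 14.3 and 62.8 in intensity units, where the lowest signals well above background on these arrays were 9.98 and 10.1. On the MDS-L/CDA arrays it read 0.336 and 0.305, neither well above background. Only the MDS-L AZA array was clearly higher. The ratio in MDS-L was 2.13 on the log2 scale (4.36-fold, spot limit 0.78), and 0.843% of the 19448 probes flagged on both arrays lay as far up or further. With a normexp background correction and an offset of 50 the same ratio was 0.70. An offset of that size pulls down the ratio of any signals this dim. The value of 0.70 therefore cannot tell how much of the fold came from background.

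MCL1, a survival protein with a short life in the cell, read 10.1, 11.1, 9.27 and 8.39 on the MDS-L vehicle, MDS-L AZA, MDS-L/CDA vehicle and MDS-L/CDA AZA arrays. The AZA ratios of 0.14 and -0.14 were well within spot limits of 0.62 and 1.01, and that in MDS-L turned to -0.40 when arrays were scaled to their median. At the main scaling no ratio of MCL1 passed its spot limit in any of the 4 comparisons. With no scaling, MDS-L/CDA over MDS-L with AZA was -0.91, just past its limit of 0.89.

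BCL2A1, a survival gene that NF-κB induces in myeloid and mast cells, gave different answers from its 2 probes. The main probe read 9.60, 9.26, 9.69 and 13.4 in the same order, and the second probe 9.55, 14.9, 8.28 and 6.56. In MDS-L AZA was thus -0.05 from vehicle by the main probe and 0.64 by the second, and in MDS-L/CDA it was 0.47 and -0.34. None of these 4 ratios passed its spot limit at this scaling. The second probe's ratio in MDS-L (limit 0.70) passed with quantile normalization and in the authors' value table (0.81 in each) and with spike-in scaling (0.77).

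No effector probe was 2-fold from vehicle with AZA in either line. The main BAX probe was the best measured of all, with 10 spots on each array, of which 1 was left out as an outlier on the MDS-L/CDA vehicle array. It read 44.8, 37.8, 41.5 and 42.0, with SDs between its spots of 0.25, 0.22, 0.35 and 0.19 log2. The spots of every array overlapped those of the others. AZA over vehicle was -0.24 in MDS-L (1.18-fold lower, spot limit 0.21) and 0.02 in MDS-L/CDA (spot limit 0.26). For this probe the limit is that of means over its spots, not of single spots. The first of these ratios was just past it, although the median of all probes in that comparison was -0.15. It was within the limit with quantile normalization (-0.02), the authors' value table (-0.02) and spike-in scaling (-0.11), and -0.78 with median scaling.

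**Figure D3:**
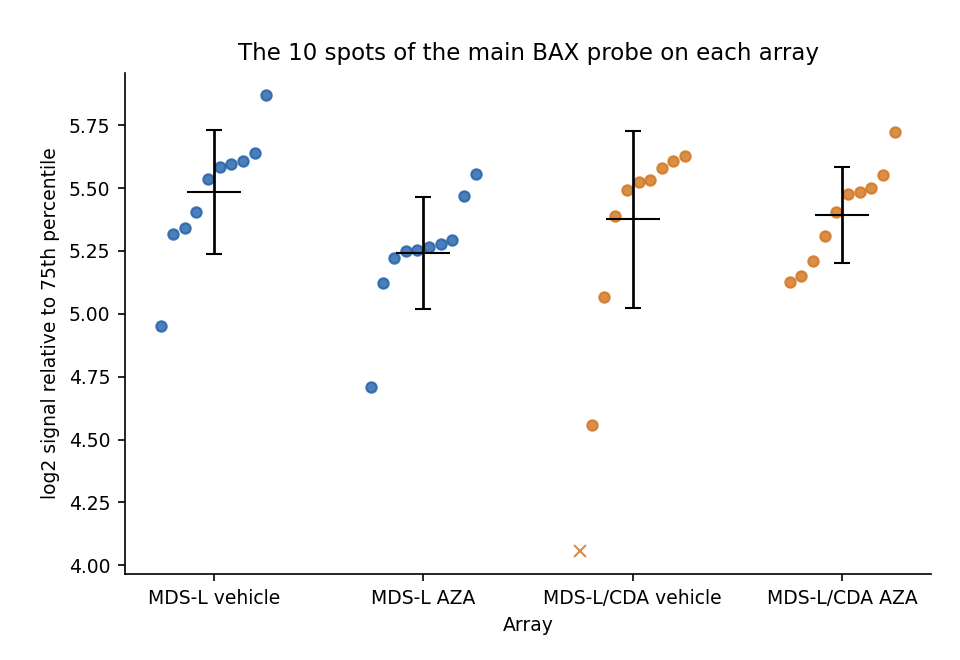
Log2 signal relative to the array's 75th percentile (vertical axis) of the 10 spots of the main BAX probe on each array (horizontal axis), with the mean as a black line, the SD as bars and the spot left out as a cross. The MDS-L AZA mean lies lowest and the spots of all 4 arrays overlap.

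The second BAX probe, which the design assigns to other transcripts, was dimmer and read 1.70, 1.23, 2.17 and 2.68. Its AZA ratios of -0.47 and 0.30 were within spot limits of 0.75 and 1.01. BAK1, the other pore former, read 13.4, 14.8, 18.6 and 17.4, with AZA ratios of 0.15 in MDS-L and -0.10 in MDS-L/CDA, both within their limits, and that in MDS-L turned to -0.40 with median scaling. BOK, a less studied BAX-like protein, was near background throughout, at 0.234 and 0.261 in MDS-L and not well above background at 0.187 and 0.107 in MDS-L/CDA.

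Counted over the members, 1 of 11 probes measured in MDS-L was at least 2-fold higher with AZA (BCL2L2) and 0 were 2-fold lower, or 9.09% past 2-fold. Of all 22261 probes measured there, 6.54% were 2-fold higher and 6.15% lower. In MDS-L/CDA 0 of 9 measured member probes passed 2-fold, where 2.48% of all probes were higher and 3.2% lower. With so few probes these counts are close to the background. At a ratio of 1.5, 3 of 11 member probes were higher in MDS-L (BCL2L1, BCL2L2 and the second BCL2A1 probe) and 1 lower (the main BCL2 probe), where 14% of all probes were higher and 18.4% lower. In MDS-L/CDA 1 of 9 was higher at that ratio (BCL2L1) and 1 lower (the main BCL2 probe), where 9.49% of all probes were higher and 10% lower. Among all probes flagged on both arrays and past 2-fold, 41.6% were higher in MDS-L and 39.8% in MDS-L/CDA, but these shares ran from 6.23% to 55.6% and from 23.6% to 44.7% over the scalings. The median log2 ratio of the member probes was 0.14 in MDS-L, against -0.15 over all probes flagged on both arrays, and -0.10 in MDS-L/CDA, against 0.01.

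**Figure D4:**
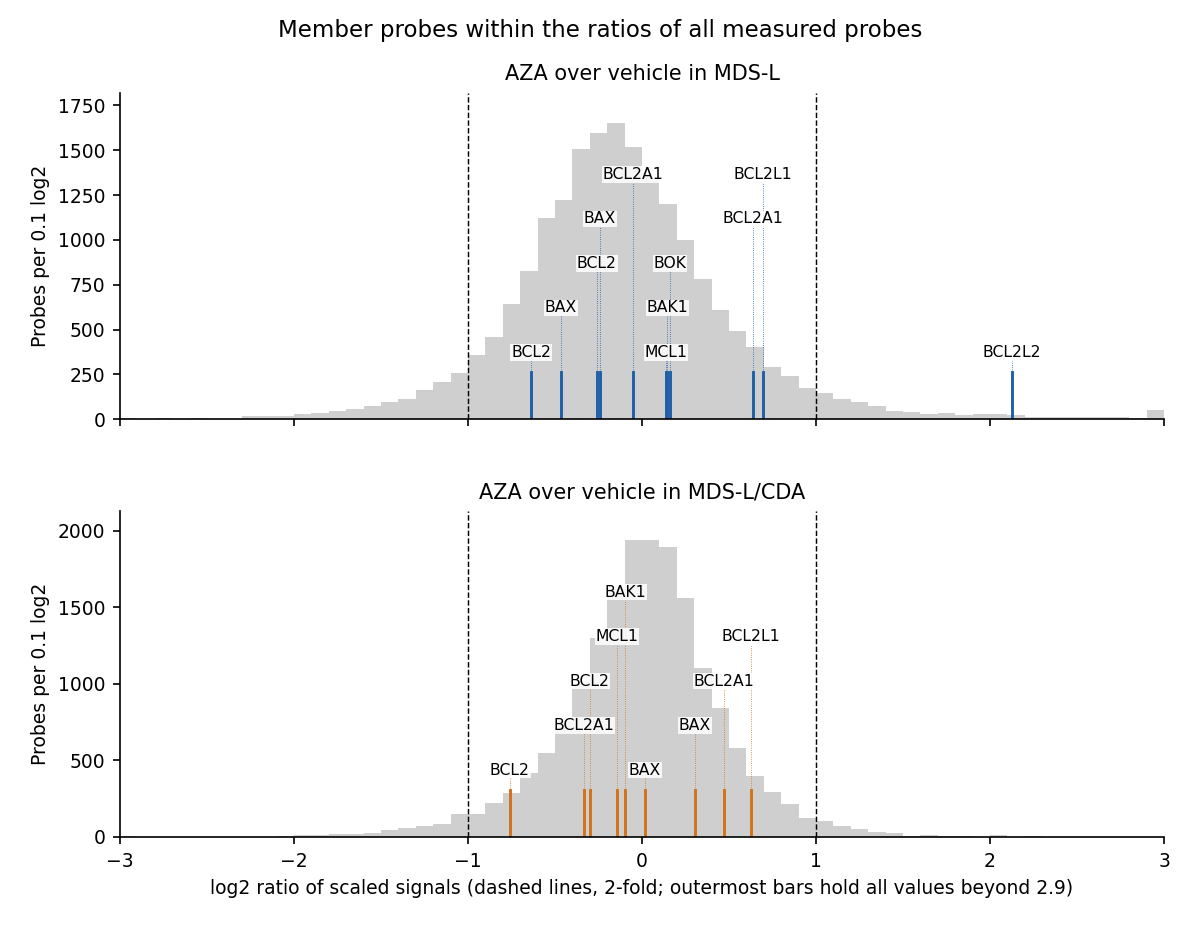
Number of probes (vertical axis, per 0.1 log2) by log2 ratio of AZA over vehicle (horizontal axis) for all probes flagged as well above background on each array of the pair, in MDS-L (top) and MDS-L/CDA (bottom), with each member probe as a coloured mark and dashed lines at 2-fold. All member probes but BCL2L2 in MDS-L lie between the dashed lines.

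Whether the members responded differently in the 2 lines was asked of the 9 probes measured on all 4 arrays. The ratio in MDS-L minus that in MDS-L/CDA ran from -0.77 (second BAX probe) to 0.97 (second BCL2A1 probe), so 0 of 9 reached 1 log2 unit, against 10.4% of all 17809 such probes, and 0 passed the spot limit. For BCL2L1 and the 2 BCL2 probes the differences were 0.07, 0.12 and 0.04, with spot limits of 1.25, 0.83 and 0.95, which leave room for a difference between the lines of up to about that size. At the main scaling these 3 probes were also the only ones of the 9 with the same sign in both lines. With median scaling MCL1 (-0.40 in MDS-L and -0.20 in MDS-L/CDA), BAK1 (-0.40 and -0.15) and the main BAX probe (-0.78 and -0.04) shared a sign too. The main BAX probe also did so with no scaling and with normexp. The response of BCL2L2 could not be compared, since neither MDS-L/CDA array measured it. The arrays compared here are the same 4, so these differences are not independent of the ratios above.

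The lines were then compared within each treatment. With vehicle, 0 of 11 member probes differed 2-fold between MDS-L/CDA and MDS-L, where 2.08% of all probes were higher in MDS-L/CDA and 2.71% lower, and 0 of 11 differed 1.5-fold, where 8.54% were higher and 8.01% lower. The 9 ratios measured on both arrays ran from -0.21 to 0.47, and the highest was that of BAK1 (spot limit 0.61). None passed its spot limit at this scaling. The main BAX probe (limit 0.28) was past it at -0.63 with median scaling and -0.48 with no scaling. It was also past it at -0.33 in the authors' value table and -0.31 with normexp. The main BCL2 probe passed with median scaling, as given above. BCL2L2 and BOK had only a bound on the MDS-L/CDA array, which gave no fold, and the lowest scaled signal well above background was 0.272 there and 0.190 on the MDS-L array.

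With AZA, 3 of 11 member probes (27.3%) differed 2-fold between the lines, 1 higher and 2 lower in MDS-L/CDA, where 5.62% of all probes were higher and 5.1% lower. No further member probe differed 1.5-fold, although 20.5% of all probes were higher and 11% lower at that ratio. BCL2L2 was 3.89-fold lower in MDS-L/CDA (log2 -1.96, spot limit 0.93). Its unflagged signal there, 0.305, lay above the array's lowest flagged value of 0.296, so its own value was used. The fold is thus the computed ratio and no lower limit. It ran from log2 -2.47 with no scaling to -0.53 with normexp. The second BCL2A1 probe was 2.27-fold lower (log2 -1.18, spot limit 0.89) while the main BCL2A1 probe was higher by 0.54 (spot limit 0.74). These 2 probes were 3.29-fold apart in this ratio, past their spot limit of 1.16, so the arrays gave no single direction for BCL2A1. The second BAX probe was 2.17-fold higher in MDS-L/CDA (log2 1.12, spot limit 0.93, with 0.54 to 1.12 over the scalings tried). The main BAX probe, with its 10 spots, differed by 0.15 (spot limit 0.18). Over the settings tried its ratio ran from -0.36 with no scaling, past that limit, to 0.15. It was also below 0 with quantile normalization, normexp and the authors' value table. At the main scaling the 2 BAX probes were 0.97 log2 units apart, just past their limit of 0.95. When probes were averaged by gene, BCL2L2 alone passed 2-fold.

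**Figure D5:**
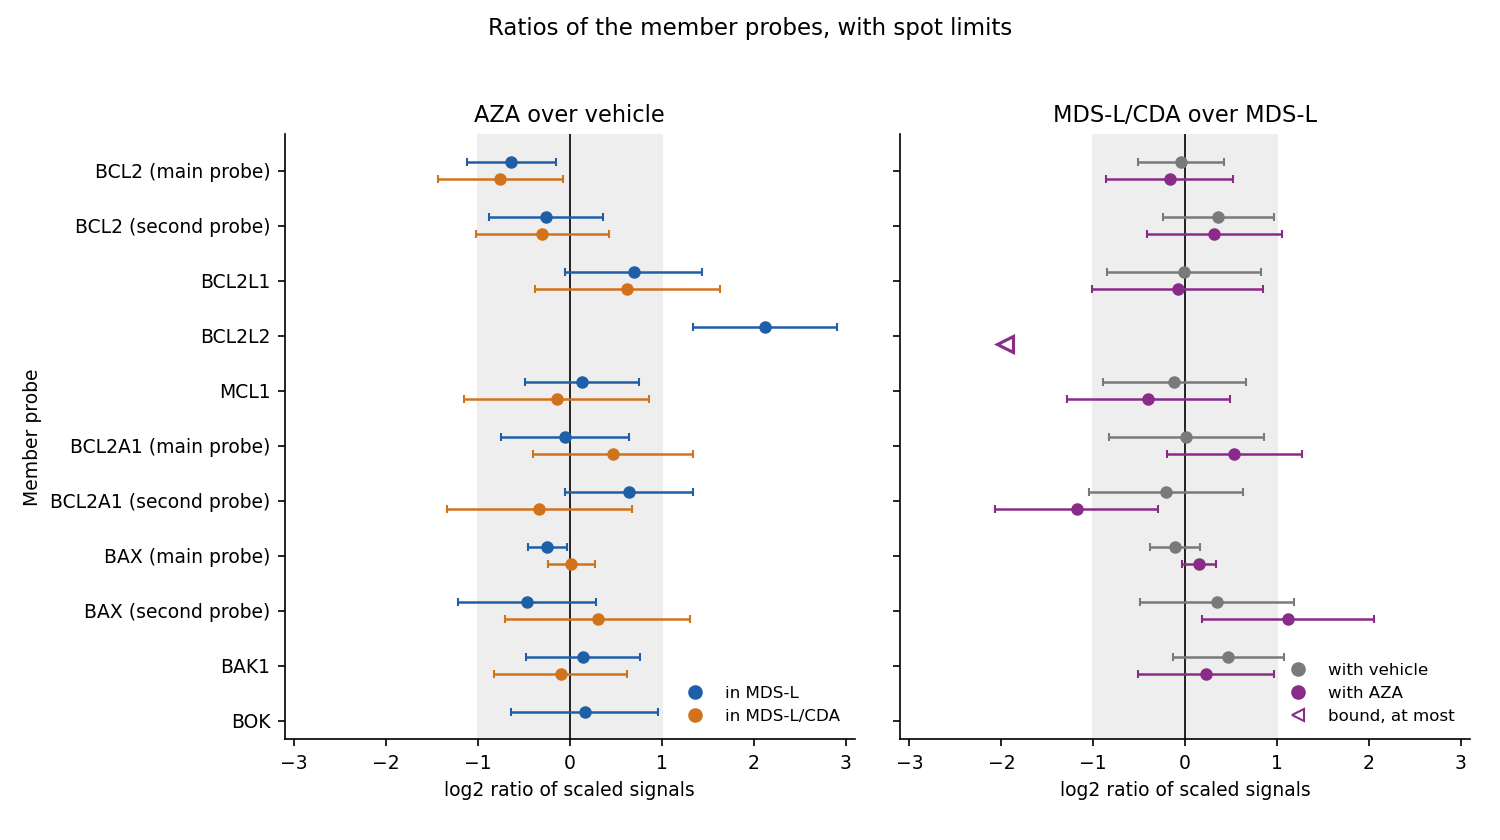
Log2 ratio of scaled signals (horizontal axis) of each member probe (vertical axis), left for AZA over vehicle in MDS-L (blue) and MDS-L/CDA (orange), right for MDS-L/CDA over MDS-L with vehicle (grey) and with AZA (purple), with bars of the spot limit, grey shading within 2-fold and an open triangle for a bound. With vehicle every measured probe lies within 2-fold. With AZA BCL2L2 (triangle, from its own unflagged signal), the second BCL2A1 probe and the second BAX probe lie outside it.

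The rest of the pathway was read from 6 lists of 37 genes, 1 probe a gene (the brightest), and its counts stand against the shares of all probes given above. Of the BH3-only genes, whose proteins start apoptosis by engaging the survival proteins, 2 of 7 measured in MDS-L were past 2-fold higher with AZA and 0 lower. BIK was at least 11.5-fold higher and BMF 4.11-fold higher. In MDS-L/CDA 1 of 6 was higher (BMF, 2.23-fold) and 1 lower (BCL2L11, which encodes BIM, 2.09-fold). BID read 92.1 with vehicle and 55.7 with AZA in MDS-L and did not pass 2-fold, nor did BAD, BBC3 (PUMA) or PMAIP1 (NOXA) in either line, while HRK lacked the flag on all 4 arrays.

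Of the 10 genes of the apoptosome and the caspases, which act after BAX and BAK1, 0 passed 2-fold in MDS-L. CYCS, which encodes cytochrome c, was -0.18 and 0.18, and APAF1, the scaffold of the apoptosome, was well above background on the MDS-L vehicle array only. Of the inhibitors of apoptosis, 1 of 6 measured in MDS-L was 2-fold lower with AZA (BIRC6, 2.04-fold) and 0 of 6 passed in MDS-L/CDA. BIRC3 was the only one that passed between the lines, at 1.80 with vehicle and 2.19 with AZA in MDS-L/CDA against 0.563 and 0.634 in MDS-L.

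Of the 4 genes for turnover of the MCL1 protein, FBXW7, part of a ligase that marks MCL1 for degradation, was lower with AZA in both lines, by 2.20-fold in MDS-L (6.42 to 2.92) and 2.36-fold in MDS-L/CDA (6.70 to 2.84), and the other 3 (HUWE1, BTRC and USP9X) did not pass 2-fold. Among the other BCL2-like genes 0 of 4 measured passed in MDS-L and 1 of 3 in MDS-L/CDA (BCL2L15, at least 2.00-fold higher, from a signal not well above background). None of the 3 channel genes VDAC1, VDAC2 and VDAC3 passed 2-fold in either line.

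Markers of other blood cells moved with AZA on the same arrays. All 5 mast cell, basophil and eosinophil markers were at least 2-fold higher in MDS-L, and their summed scaled signal was 30.3 with vehicle and 224 with AZA, and 3 of 5 were in MDS-L/CDA, with sums of 12.2 and 54.6. Megakaryocyte markers summed to 11.1 and 27.9 in MDS-L and to 14.8 and 26.2 in MDS-L/CDA, with PF4 unflagged throughout. Erythroid markers summed to 3.37 and 11.9 in MDS-L, where HBG1 was above background with AZA only, and to 3.86 and 3.76 in MDS-L/CDA. T cell markers summed to 0.440 and 5.80 in MDS-L, where 2 of 3 were flagged with AZA, and to 0.412 and 0.670 in MDS-L/CDA, while CD3E was unflagged throughout. Of the 4 monocyte and neutrophil markers on the array, 3 were flagged on each AZA array, with sums of 1.60 in MDS-L and 1.42 in MDS-L/CDA against 0.659 and 0.337 with vehicle. Immature myeloid markers summed to between 180 and 214 on the 4 arrays, while 3 of 7 passed 2-fold with AZA in MDS-L, where KIT was 47.3-fold and GATA2 2.46-fold higher and CD38 2.79-fold lower. KIT (3.58-fold) and GATA2 (2.01-fold) were also higher in MDS-L/CDA. The part of these markers in the values of BCL2, BCL2L1, BCL2L2 and BCL2A1 was not tested, and a change in the share of a kind of cell cannot be told apart here from a change in RNA per cell.

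No gene could be named by likeness of pattern to a member over the 4 arrays, since no main probe of a member was both well above background on all 4 and spread over at least 1 log2 unit.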

How the data were processed

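Total RNA of 4 samples was hybridized to 4 arrays of 1 Agilent 1-colour design (072363) on 1 slide. The deposited scanner files (Agilent Feature Extraction 10.7.1.1, per the file headers) hold the intensity of each spot on a linear scale, background-subtracted within the array and not normalized between arrays. The authors also deposited a value table, an intensity on a linear scale whose normalization is not given in the sources used here, which served as an alternative.

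Control spots and outlier-flagged spots were left out, log2 signals were averaged per probe, and each array was centred on its 75th percentile. A probe counted as past 2-fold where its ratio, or its lower bound when 1 of the 2 arrays was not well above background, was at least 2. In a bound, a dim signal took its own value or, if higher, the array's lowest value flagged well above background. Where its own value was used, as for BCL2L2 between the lines with AZA, the bound is the computed ratio. The spot limit was 1.96 times the root of the summed spot variances. These came from 255 to 266 probes with 10 spots per array in 5 brightness bins, with the scanner's error model for dimmer spots. For the main BAX probe the variance of its own spots was used, divided by their number. Its limits are therefore not on the same scale as those of the single-spot probes. With 1 array per condition no p-value was computed. Named genes were all 8 members and the fixed lists (6 pathway, 9 cell marker), of which some results are not reported here. Members and lists were chosen with earlier results of these data known. Probe positions are hg19 and promoters RefSeq GRCh38.p14. Python 3.11.15, numpy 2.4.6, pandas 2.3.3, R 4.3.3 and limma 3.58.1 (normexp) were used, and the calling rule was tested on simulated data. The simulation changed bright probes only and gave both arrays the same flags. It therefore did not try bounds or changes in dim probes such as that of BCL2L2. Arrays have no read depth, and their number limits the precision.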

Additional observations from a re-analysis of the deposited data

How the results depend on the processing

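Each of the 4 comparisons was recomputed under 12 alternatives, and the direction of no called member probe turned in any of them. For AZA over vehicle in MDS-L the count past 2-fold was 1, and became 3 with scaling to the array median (adding the main BCL2 and second BAX probes, both lower), 0 with normexp and 4 at a ratio of 1.5. In MDS-L/CDA it was 0 and became 2 at a ratio of 1.5. Between the lines with AZA it was 3, and became 1 with normexp, 1 when a Z score of at least 2 was also required, 1 when the probes of a gene were averaged, 2 with no scaling (without the second BAX probe), 2 when both arrays had to be well above background (without BCL2L2) and 4 with no filter on dim probes (adding BOK). With vehicle it was 0 under every alternative. The number of probes whose AZA ratios differed by at least 1 log2 unit between the lines was 0, and became 2 with median scaling, 2 at a ratio of 1.5, and 1 each with no scaling, quantile normalization, the authors' value table and spike-in scaling. Median scaling moved the median log2 ratio of all probes by -0.54 in MDS-L and by -0.52 between the lines with vehicle, so ratios of single members within that size depend on the scaling. No paired analysis was possible because each line has 1 array per treatment and the labels give no replicate numbers to pair within it, and no array could be left out without losing a condition. A fit that takes the lines as blocks with 1 AZA effect in common was not run. Signal limits BCL2L2 and BOK, which lie near background.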
